A study of Arabidopsis thaliana with 9 samples.

Results

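CP1 (AT4G36880) and AT4G01610 are 2 papain-type cysteine protease genes of Arabidopsis thaliana, and their signals in dry seeds are described here on 9 arrays of 3 genotypes. They were found by locus among 13286 genes that had a probe set of their own, and each had 1 probe set among the 22746 tested. Both genes were picked because their signals differ between these genotypes, so their values below are a description without a test. Seeds had been collected fresh and dry at the end of maturation, from 3 genotypes with 3 biological replicates each, every replicate a bulk of 8 plants. All 3 genotypes share the Landsberg erecta background. Ler, the wild type, is labelled as low in expression of DOG1, or DELAY OF GERMINATION 1, which sets how dormant the seeds are. The dog1-1 mutant is labelled as lacking DOG1 expression, and NILDOG1 is a near isogenic line that carries the DOG1 allele of the Cvi accession, labelled as strong. The mutant and the near isogenic line are 1 line each, so what DOG1 does and what other sequence in that line does cannot be told apart. The probe annotation named 0 probe sets for DOG1, so its own level was not used to check the labels.

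Papain-type proteases are made as inactive precursors with an inhibitory pro-domain and a signal peptide, mature in the acid lumen of the vacuole or in the cell wall, and cut proteins with a catalytic cysteine. In plants they degrade stored and damaged proteins, above all in germinating seeds, in senescing leaves and in cells that are dying. Cystatins, small proteins that block the active site, hold them in check, and vacuolar processing enzymes, which are cysteine proteases of another family, process many vacuolar precursors. CP1 belongs to the RD21 subfamily, is also listed as RD21A-LIKE PROTEASE1, and has served as a marker of gibberellin-induced expression in germinating seeds. AT4G01610 encodes a cathepsin B-like protease, the plant relatives of an animal lysosomal enzyme, and is known to be expressed during germination. A different gene, AT4G11310, carries CP1 as a synonym in the gene table and was not analysed here. CP1 and AT4G01610 both lie on chromosome 4 with 5170 annotated genes between them, AT4G01610 near the start and CP1 near the end.

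CP1 had log2 signals of 4.96, 5.01 and 4.67 on the 3 Ler arrays, 7.52, 8.23 and 7.97 on the dog1-1 arrays, and 6.75, 7.35 and 6.39 on the NILDOG1 arrays. Every dog1-1 array was above every NILDOG1 array, and every NILDOG1 array was above every Ler array, so the 3 genotypes did not overlap. The means were 4.88 ± 0.19 in Ler, 7.91 ± 0.36 in dog1-1 and 6.83 ± 0.48 in NILDOG1 (SD, n = 3 each). The order of the levels was thus Ler, NILDOG1, dog1-1, with gaps between means of 1.95 and 1.07 on the log2 scale against a pooled SD of 0.36. CP1 was 8.14-fold higher in dog1-1 and 3.87-fold higher in NILDOG1 than in Ler. Across all probe sets tested, the arrays of dog1-1 lay wholly above those of Ler for 12.9%, those of NILDOG1 wholly above Ler for 4.84% and those of NILDOG1 wholly below dog1-1 for 12.6%. In bulk seed RNA, more transcript per cell and more cells of a type that holds the transcript cannot be told apart.

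AT4G01610 had log2 signals of 6.44, 6.67 and 6.46 in Ler, 9.39, 10.24 and 10.20 in dog1-1, and 6.35, 6.57 and 6.18 in NILDOG1. The dog1-1 arrays stood alone at the top, while the Ler and NILDOG1 arrays overlapped. The means were 9.94 ± 0.48 in dog1-1 and 6.37 ± 0.20 in NILDOG1, with an SD of 0.13 in Ler. AT4G01610 was 10.7-fold higher in dog1-1 than in Ler and 11.9-fold lower in NILDOG1 than in dog1-1. The difference between NILDOG1 and Ler was -0.16 on the log2 scale, within the pooled SD of 0.31, so these neighbours in the order did not differ beyond their spread.

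The 2 genes therefore share the high signal in dog1-1 and part in NILDOG1, where CP1 was higher than in Ler by 1.95 and AT4G01610 was not. The comparisons of dog1-1 and NILDOG1 with Ler use the same Ler arrays. With each array left out in turn, CP1 was higher than in Ler by 2.86 to 3.22 in dog1-1 and by 1.69 to 2.17 in NILDOG1, and AT4G01610 was higher by 3.27 to 3.70 in dog1-1 and differed by -0.26 to -0.062 in NILDOG1. Centring each array on its hybridization controls turned the sign of that last difference, to 0.011.

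**Figure D1:**
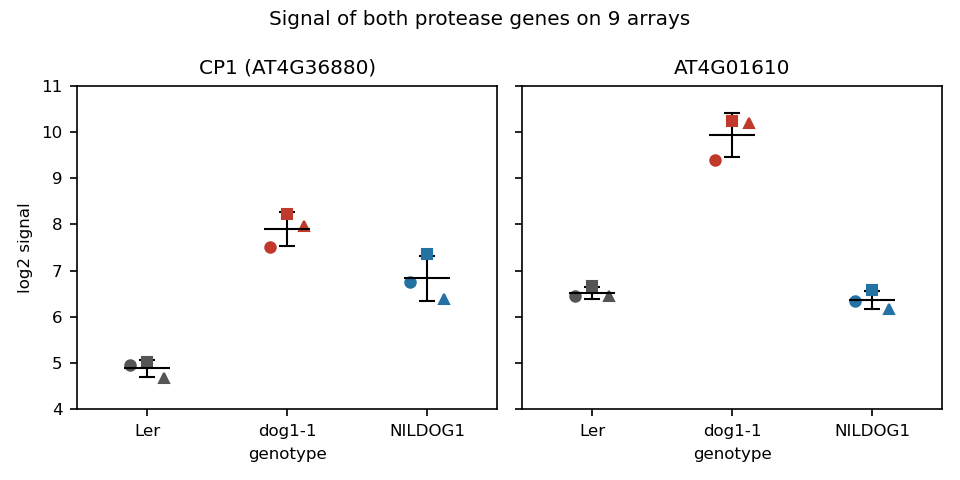
Log2 signal of CP1 and AT4G01610 on each of 9 arrays by genotype (circle, square and triangle are replicates 1, 2 and 3; horizontal bars are means and error bars SDs, n = 3). CP1 steps from 4.88 in Ler to 6.83 in NILDOG1 and 7.91 in dog1-1, while AT4G01610 is high in dog1-1 (9.94) and overlaps between Ler and NILDOG1.

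Replicate 2 had the highest signal of both genes in all 3 genotypes, and in dog1-1 and NILDOG1 both genes ranked the 3 arrays alike. Taken 1 at a time, 2.37% of all probe sets had replicate 2 highest in all 3 genotypes. The share for 2 genes together was not worked out. In dog1-1, replicate 1 was lower than the genotype mean by 0.39 for CP1 and by 0.55 for AT4G01610. In NILDOG1, replicate 2 was 0.52 above the mean for CP1 and 0.21 above it for AT4G01610, and replicate 3 was 0.44 and 0.19 below. In Ler the deviations were smaller, from -0.21 to 0.13 for CP1 and from -0.081 to 0.15 for AT4G01610, and the genes ranked the arrays differently, with CP1 lowest on replicate 3 and AT4G01610 lowest on replicate 1. The replicate numbers carry no known meaning across genotypes.

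**Figure D2:**
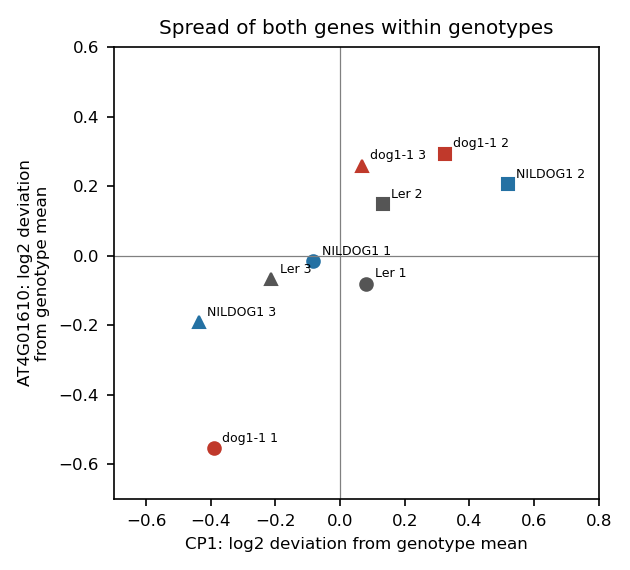
Deviation of each array from its genotype mean (log2) for CP1 on the horizontal axis and AT4G01610 on the vertical axis; colours mark genotypes and labels give genotype and replicate. Replicate 2 lies at the upper right in each genotype (0.13, 0.32 and 0.52 for CP1 in Ler, dog1-1 and NILDOG1), and dog1-1 replicate 1 lies at the lower left (-0.39 and -0.55).

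Array medians were 3.51 to 3.59, as the authors' normalization across arrays sets them, and Pearson correlations within a genotype were 0.992 to 0.996. The mean of the hybridization controls, added to each sample before hybridization, was 9.19 to 9.57 in Ler, 8.81 to 9.14 in dog1-1 and 9.12 to 9.27 in NILDOG1, so Ler and dog1-1 did not overlap. Ler replicate 1 (7.33) and dog1-1 replicate 3 (8.04) stood apart in the control for large-subunit ribosomal RNA, which lay at 9.86 or above on the other arrays. Without both arrays CP1 was higher in dog1-1 than in Ler by 3.03 and AT4G01610 by 3.25. The 3' minus 5' difference of the GAPDH control probe sets, a sign of RNA integrity, was 0.83 to 1.11 in Ler, 1.40 to 1.75 in dog1-1 and 1.23 to 1.36 in NILDOG1, and that of actin was 4.32 to 4.78, 4.21 to 4.90 and 4.16 to 4.43. The part of RNA integrity in the results was not tested. Seed storage protein genes marked the samples as seed: the summed signal of the 5 measured of 13 was 14.29 to 14.42 in Ler, 14.56 to 14.63 in dog1-1 and 14.30 to 14.43 in NILDOG1 (log2 of the summed linear signals). The 3 measured of 8 green tissue markers summed to 8.70 to 9.37, 8.66 to 8.87 and 9.02 to 9.30. Among these 3, RCA, the Rubisco activase, was higher in dog1-1 than in Ler by 1.52 (adjusted p = 8.91e-06). Light-harvesting protein genes went both ways, LHCB4.2 with 6.06 in Ler and 6.56 in dog1-1 (adjusted p = 0.0409) and LHCB4.1 with 8.75 and 8.14 (adjusted p = 0.0413). The call of LHCB4.2 was lost without Ler replicate 2 or 3, dog1-1 replicate 1 or 2 or NILDOG1 replicate 1 or 3 (adjusted p 0.0534 to 0.133), and that of LHCB4.1 without any one array other than Ler replicate 1 (adjusted p 0.0509 to 0.134). The call of LHCB4.1 was also lost with replicate numbers as a block (adjusted p = 0.0627) and when arrays were centred on their hybridization controls (-0.26, adjusted p = 0.318). The 2 measured of 5 seed coat markers summed to 3.72 to 3.92, 3.63 to 3.85 and 3.70 to 3.90, and the 2 measured of 4 endosperm markers to 4.32 to 4.50, 3.91 to 4.19 and 4.15 to 4.30. The endosperm gene IKU2 fell in dog1-1 by 0.42 (adjusted p = 0.0153), a call lost without Ler replicate 3 or dog1-1 replicate 3 (adjusted p 0.0520 and 0.0762) and when arrays were centred on their hybridization controls (-0.064, adjusted p = 0.738). AGL62, which marks early endosperm, was at background in all 3 genotypes, that is no higher than 2.56, the highest signal of a bacterial control (TrpnX) absent from plant RNA. The part of other cell types in the results was not tested.

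The rest of the papain-type family was compared with all 9 arrays in 1 limma fit, adjusted by Benjamini-Hochberg over 22746 probe sets and called at an adjusted p of 0.05. Of 32 family members 19 had a probe set of their own: 5 of 9 in the RD21 subfamily, 6 of 7 in the SAG12 group, 3 of 4 in the RD19 group, 3 of 3 cathepsin B-like genes, 1 of 2 aleurain-like genes and the single THI gene, with none of the 2 XCP, 3 CEP and 1 XBCP genes. No filter on low values was used. Of the 17 other than CP1 and AT4G01610, 2 rose, 0 fell and 15 did not pass in dog1-1 against Ler, where 8.33% of all probe sets were called higher and 5.28% lower (3 of the 17 at an unadjusted p under 0.05). This share is close to the background. The median difference of the 17 was -0.054, against -0.040 over all probe sets tested.

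The member that rose with them was AT3G45310, an aleurain-like protease gene of the vacuolar type. Its signals were 4.21, 4.25 and 3.97 in Ler, 6.17, 7.53 and 7.32 in dog1-1, and 4.11, 4.32 and 4.07 in NILDOG1. Only the dog1-1 arrays were high, and Ler and NILDOG1 overlapped. Replicate 1 was again the lowest dog1-1 array, and how many of all probe sets share that was not counted. AT3G45310 rose 7.28-fold in dog1-1 (difference 2.86, SE 0.27, limma adjusted p = 1.92e-05; with each array left out, adjusted p from 9.43e-08 to 2.64e-04), and at least 2-fold rises were called for 2.44% of all probe sets. It was lower in NILDOG1 than in dog1-1 by 2.84 (SE 0.27, adjusted p = 1.96e-05), while NILDOG1 and Ler differed by 0.021 (adjusted p = 0.998). AT1G02305, a second cathepsin B-like gene, rose by 0.36 (SE 0.10, adjusted p = 0.0375), from 8.44 ± 0.11 to 8.80 ± 0.14, with 8.40 ± 0.065 in NILDOG1. That call was lost with replicate numbers as a block (adjusted p = 0.0661), and without Ler replicate 2 or 3, dog1-1 replicate 2 or 3, or NILDOG1 replicate 1 or 2 (adjusted p 0.0504 to 0.161). The third cathepsin B-like gene, AT1G02300, had 2.65 ± 0.15 in Ler and was at background in dog1-1 (2.41 ± 0.034), and its difference did not pass (adjusted p = 0.226).

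AT3G54940, of the RD19 group, was bright and level across genotypes, with 12.82 ± 0.048 in Ler, 12.88 ± 0.12 in dog1-1 and 12.85 ± 0.035 in NILDOG1. Its difference between dog1-1 and Ler was 0.058 (adjusted p = 0.755). AT2G21430, of the same group, spread widely in Ler (3.19, 4.14 and 4.44) and had 4.11 ± 0.26 in dog1-1 and 3.90 ± 0.19 in NILDOG1. Together with AT1G02300, the remaining members make up 13 with genotype means between 2.19 and 3.53, and 4 of these were at background in all 3 genotypes, no higher than 2.56. The RD21 subfamily members measured beside CP1 (AT3G19390, AT3G19400, AT3G43960 and AT4G23520) were among these 13, as were AT4G16190 of the RD19 group, AT1G06260 of the THI type and the 6 of the SAG12 group, named for a protease gene of leaf senescence (AT2G34080, AT1G29090, AT1G29080, AT2G27420, AT3G49340 and AT1G29110). AT4G23520 had 3.31 ± 0.14, 3.40 ± 0.12 and 3.53 ± 0.24 in Ler, dog1-1 and NILDOG1, none of which approached the steps seen for CP1. The 15 members that did not pass in dog1-1 against Ler had differences from -0.25 to 0.18.

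Between NILDOG1 and Ler, 0 of the 17 rose and 0 fell with limma, and 0 had an unadjusted p under 0.05, where 0.321% of all probe sets were called higher and 0.224% lower. Their differences ran from -0.22 to 0.22 with a median of 0.021, against -0.0018 over all probe sets. Between NILDOG1 and dog1-1, 2 of the 17 fell (AT3G45310 and AT1G02305) and 1 rose, against 7.52% of all probe sets lower and 4.94% higher, with a median of 0.11 against 0.035. The rise was that of AT1G29110, from 2.72 ± 0.11 in dog1-1 to 3.16 ± 0.17 in NILDOG1 (adjusted p = 0.0150). It was lost after each array was centred on its hybridization controls (adjusted p = 0.477) and without dog1-1 replicate 2, NILDOG1 replicate 1 or NILDOG1 replicate 3 (adjusted p 0.0570 to 0.0661). The fall of AT1G02305 (-0.40, adjusted p = 0.0243) was lost without dog1-1 replicate 3, NILDOG1 replicate 1 or NILDOG1 replicate 3 (adjusted p 0.0810 to 0.112).

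**Figure D3:**
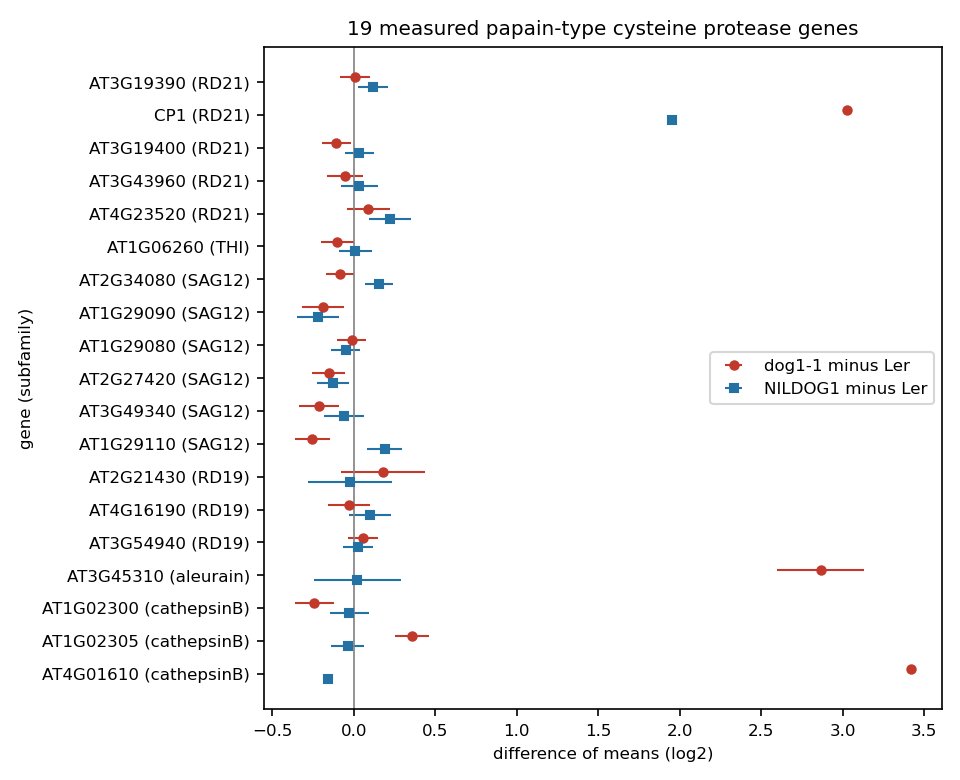
Difference of means from Ler (log2) for the 19 measured papain-type genes, red circles for dog1-1 and blue squares for NILDOG1; bars are limma standard errors, left out for CP1 and AT4G01610, which were chosen for their differences. CP1 (3.03 and 1.95), AT4G01610 (3.42 and -0.16) and AT3G45310 (2.86 and 0.021) stand away from the others, whose differences lie between -0.25 and 0.36.

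Inhibitors of these proteases were measured for 5 of 9 genes. In dog1-1 against Ler 1 rose, 0 fell and 4 did not pass, with 2 at an unadjusted p under 0.05 and a median of 0.0040, where 8.33% of all probe sets were higher and 5.28% lower. AT5G47550, a cystatin gene, had 8.41, 7.84 and 7.75 in Ler, 8.87, 8.89 and 8.76 in dog1-1, and 9.82, 9.67 and 9.84 in NILDOG1. The 3 genotypes did not overlap, and the order was Ler, dog1-1, NILDOG1, which is not the order of CP1. AT5G47550 rose by 0.84 in dog1-1 (SE 0.15, adjusted p = 0.00237) and by 1.78 in NILDOG1 (SE 0.15, adjusted p = 7.63e-05), and was higher in NILDOG1 than in dog1-1 by 0.94 (adjusted p = 0.00112), where 14.4% of all probe sets had NILDOG1 arrays wholly above those of dog1-1. It lies on chromosome 5, as DOG1 does, with 224 annotated genes between them, so an effect of Cvi sequence around DOG1 and one of DOG1 itself cannot be told apart there. CYS1, a second cystatin gene, had 6.13 ± 0.24 in Ler, 6.52 ± 0.26 in dog1-1 and 5.96 ± 0.12 in NILDOG1. Its difference between dog1-1 and Ler did not pass (0.39, adjusted p = 0.115) except after centring on the hybridization controls (0.75, adjusted p = 0.00266). CYS1 was lower in NILDOG1 than in dog1-1 by 0.56 (adjusted p = 0.0272), a call lost without dog1-1 replicate 2 or 3 or any one of the NILDOG1 arrays (adjusted p 0.0507 to 0.114). The cystatin gene AT5G05110 (9.20 ± 0.065 and 8.96 ± 0.16 in Ler and dog1-1, adjusted p = 0.202) and SERPIN1, a serpin that traps RD21 (9.59 ± 0.0087 and 9.37 ± 0.23, adjusted p = 0.275), did not pass, although SERPIN1 did without dog1-1 replicate 1 (adjusted p = 0.0494). AT1G72290, of the Kunitz inhibitor type, was at background in Ler and dog1-1.

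Vacuolar processing enzymes, which cleave precursors of storage proteins and of vacuolar enzymes after asparagine, were all measured. Of the 4, 1 rose, 0 fell and 3 did not pass in dog1-1 against Ler, with a median of 0.072 (all probe sets, 8.33% higher and 5.28% lower), and 0 were called in the other comparisons with limma (0 at an unadjusted p under 0.05 in NILDOG1 against Ler and 1 in NILDOG1 against dog1-1). GAMMA-VPE, the form known from vegetative organs, went from 8.41 ± 0.26 to 8.85 ± 0.16 (adjusted p = 0.0481), although the highest Ler array (8.67) overlapped the lowest dog1-1 array (8.66). That call was lost with replicate numbers as a block (adjusted p = 0.0675) and without any one array other than Ler replicate 2 and dog1-1 replicate 1 (adjusted p 0.0649 to 0.172). BETA-VPE, the seed form, had 12.43 ± 0.0046, 12.53 ± 0.11 and 12.41 ± 0.031 in Ler, dog1-1 and NILDOG1, and did not pass (adjusted p = 0.539 for dog1-1 against Ler). ALPHA-VPE (3.01, 3.05 and 2.94) and DELTA-VPE (2.59, 2.46 and 2.47), the latter known from the seed coat, were dim in all 3 genotypes.

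Aspartic proteases of the vacuole are another class that acts on seed proteins. Of the 3 genes listed, all measured, 2 rose and 0 fell in dog1-1 against Ler, against 8.33% and 5.28% of all probe sets, with a median of 0.35. AT1G62290 had 9.61, 9.08 and 9.32 in Ler, 11.07, 10.62 and 10.84 in dog1-1, and 8.64, 9.26 and 9.14 in NILDOG1. The dog1-1 arrays were all high, and Ler and NILDOG1 overlapped, as for AT4G01610. The rise was 2.84-fold (1.51, SE 0.18, adjusted p = 1.31e-04), and AT1G62290 was lower in NILDOG1 than in dog1-1 by 1.83 (SE 0.18, adjusted p = 2.74e-05). In NILDOG1 against Ler 0 of the 3 passed with limma, and 0 had an unadjusted p under 0.05. Its array order in dog1-1 was not that of both cysteine protease genes, since replicate 1 was the highest. APA1 rose by 0.35, from 12.04 ± 0.092 to 12.39 ± 0.11 (adjusted p = 0.0338), a call lost under the block (adjusted p = 0.0671) and without Ler replicate 1 or 3, dog1-1 replicate 2 or 3 or NILDOG1 replicate 1 (adjusted p 0.0515 to 0.145). AT4G04460 was dim at 2.86, 2.93 and 2.75.

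Serine carboxypeptidases, which trim proteins from the carboxyl end and include vacuolar enzymes of germinating grain, were added as a list after the values had been seen. Of 51 genes taken by name, 29 were measured. In dog1-1 against Ler 3 rose, 0 fell and 26 did not pass (6 at an unadjusted p under 0.05), a share close to the 8.33% of all probe sets, with a median of -0.053. Of the 29, 9 were at background in all 3 genotypes and 15 in at least 1, which limits what can be said of them. The gene scpl35 had 6.06, 6.84 and 6.98 in dog1-1, against 3.95 ± 0.27 in Ler and 4.04 ± 0.23 in NILDOG1, and rose 6.41-fold (SE 0.22 on the log2 scale, adjusted p = 6.98e-06). The gene scpl29 rose by 2.04, from 3.84 ± 0.29 to 5.88 ± 0.32 (adjusted p = 1.47e-05), and scpl26 rose 2.76-fold, from 3.59 ± 0.058 to 5.05 ± 0.51 (adjusted p = 2.47e-04). In each of the 3 the dog1-1 arrays did not overlap those of Ler or NILDOG1. Over all probe sets, dog1-1 arrays lay wholly above those of Ler for 12.9%, and NILDOG1 arrays wholly below those of dog1-1 for 12.6%. Replicate 1 was the lowest dog1-1 array of these genes, as for CP1, AT4G01610 and AT3G45310, but also for RCA (5.66), which is not a protease gene. The share of all probe sets with that lowest array was not counted. In NILDOG1 against Ler 0 of the 29 rose and 0 fell with limma (1 at an unadjusted p under 0.05). In NILDOG1 against dog1-1, where 7.52% of all probe sets fell, 0 rose and 5 fell. These were scpl35 (-2.58), scpl29 (-2.04), scpl26 (-1.26), scpl20 (-0.56, adjusted p = 0.0216) and scpl25 (-0.52, adjusted p = 0.00381). The count was 4 without dog1-1 replicate 2 or 3 or NILDOG1 replicate 1 or 3. Of 8 measured subtilases, a further list added afterwards, 1 rose and 1 fell in dog1-1 against Ler (8.33% and 5.28% of all probe sets), SBT1.3 by 0.53 (adjusted p = 0.0299) and SBT3.5 by -0.33 (adjusted p = 0.0362). Among the 8, 2 were at background in all 3 genotypes and 5 in at least 1. The call of SBT1.3 was lost without Ler replicate 2 or dog1-1 replicate 3 (adjusted p 0.111 and 0.132), and that of SBT3.5 without any one array other than NILDOG1 replicates 2 and 3 (adjusted p 0.0551 to 0.123), with the replicate block (adjusted p = 0.0571) and when arrays were centred on their hybridization controls, which turned its sign (0.020).

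**Figure D4:**
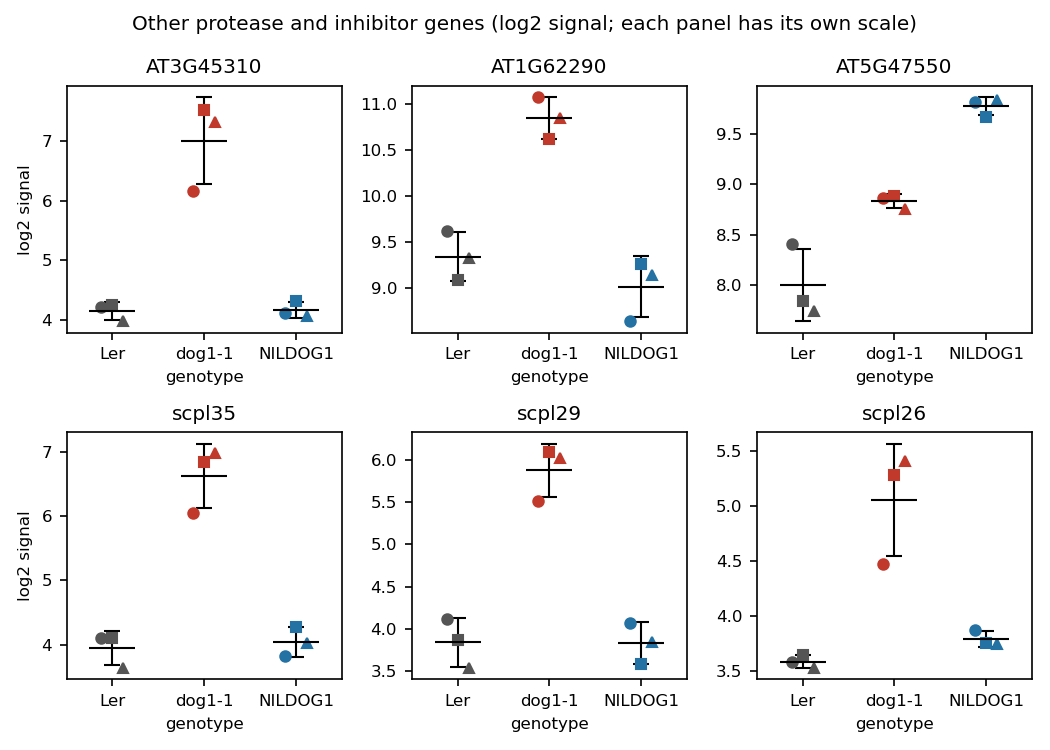
Log2 signal on each array for the protease genes AT3G45310, AT1G62290, scpl35, scpl29 and scpl26 and the cystatin gene AT5G47550, by genotype (circle, square and triangle are replicates 1, 2 and 3; bars are means and SDs, n = 3; each panel has its own scale that does not start at 0). The 5 protease genes are high in dog1-1 alone, and AT5G47550 is lowest in Ler, with means of 8.84 in dog1-1 and 9.78 in NILDOG1.

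Storage proteins are what seed proteases act on. Of the 5 measured genes 1 rose, 2 fell and 2 did not pass in dog1-1 against Ler, beside 8.33% higher and 5.28% lower over all probe sets, with a median of 0.084. The cruciferin-like gene AT1G03890 rose by 0.69 (adjusted p = 6.48e-04), the vicilin-type genes AT4G36700 and AT2G18540 fell by 0.95 and 0.97 (adjusted p = 8.45e-04 and 0.00113), and PAP85 had 13.45 ± 0.066 and 13.54 ± 0.030. In NILDOG1 against Ler 0 rose and 0 fell with limma, and 0 had an unadjusted p under 0.05. In NILDOG1 against dog1-1 2 rose and 2 fell, beside 4.94% higher and 7.52% lower over all probe sets. AT4G36700 and AT2G18540 rose by 1.17 and 0.95 (adjusted p = 1.82e-04 and 0.00133). AT1G03890 and AT2G28490 fell by 0.63 and 0.33 (adjusted p = 0.00133 and 0.0401). The call of AT2G28490 was lost without any one array other than Ler replicate 1 (adjusted p 0.0531 to 0.148). Of 13 genes of vacuolar sorting the single one measured was MAG2, which acts in the export of storage proteins from the endoplasmic reticulum. It had 4.86 ± 0.065 in Ler, 4.45 ± 0.27 in dog1-1 and 4.77 ± 0.076 in NILDOG1 and did not pass in dog1-1 against Ler (adjusted p = 0.0502). MAG2 did pass with the replicate block (adjusted p = 0.0410), with dim probe sets left out (adjusted p = 0.0470) and without dog1-1 replicate 2 (adjusted p = 0.00451). None of 9 metacaspase genes was analysed here.

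The genes most like each of both were taken as the 5 with the smallest root mean square difference over the 9 arrays, after every profile was centred on its own mean. Since they were chosen by these values, they are described without a test. For AT4G01610 they were AT5G10120, which encodes a relative of the ethylene factor EIN3 (root mean square difference 0.21), AT1G29980 (0.27), STR18, a sulfurtransferase (0.29), AT5G59080 (0.29) and AT5G14450, of the lipase family (0.30). AT5G10120 had means of 5.85, 9.36 and 5.50 in Ler, dog1-1 and NILDOG1, and STR18 had 4.01, 7.20 and 4.18. AT3G45310 came 7th of 13285 genes for AT4G01610 (0.34) and 90th for CP1 (0.91).

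For CP1 the nearest profiles were farther away. They were AT1G42705 (root mean square difference 0.36), AT5G43150 (0.54), AT5G20950, of a glycosyl hydrolase family (0.57), AT5G43190, of the kelch repeat family (0.61), and LIL3:2, a light-harvesting-like protein gene (0.62). AT1G42705, whose probe set the array maker marks as matching more than 1 transcript, had 3.97, 6.91 and 5.57 in Ler, dog1-1 and NILDOG1, so NILDOG1 lay between the others there too. Of these 5 genes 4 lie on chromosome 5, as DOG1 does, and AT5G43150, AT5G43190 and LIL3:2 have 369, 361 and 169 annotated genes between them and DOG1, while AT5G20950 has 3155. Chromosome 5 holds 22.4% of the measured genes and 4 of the 5 nearest profiles of AT4G01610, those with 1718 to 4482 annotated genes between them and DOG1. AT4G01610 ranked 670th for CP1, with a root mean square difference of 1.11, and CP1 ranked 137th for AT4G01610.

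**Figure D5:**
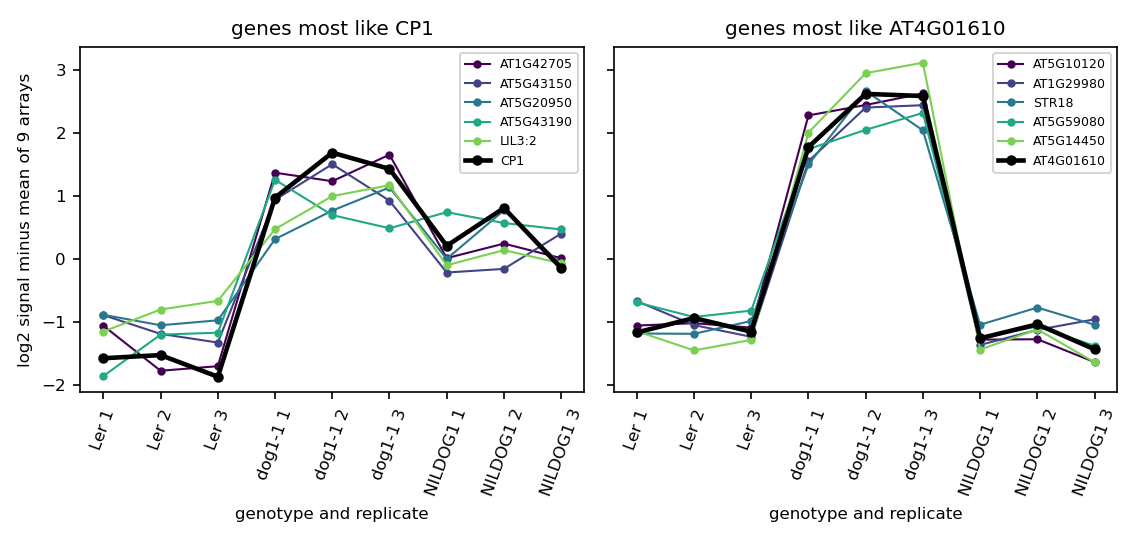
Log2 signal minus the mean of 9 arrays, by genotype and replicate, for CP1 (left, black) and AT4G01610 (right, black) with the 5 genes most like each (coloured lines). The lines for AT4G01610 lie close together (root mean square differences 0.21 to 0.30), while those for CP1 are looser (0.36 to 0.62) with the NILDOG1 means between those of Ler and dog1-1. For AT5G43190 and AT5G20950 the NILDOG1 arrays overlap those of dog1-1.

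Of the 4 measured genes next to CP1 and AT4G01610 on chromosome 4, 1 was called in dog1-1 against Ler, and it was higher, as were 8.33% of all probe sets. Before CP1, AT4G36860 had 6.44 ± 0.16 in Ler, 6.42 ± 0.074 in dog1-1 and 6.52 ± 0.11 in NILDOG1, with 1 annotated gene between them. After CP1, with 9 annotated genes between, SPT (SPATULA), known for its part in seed dormancy, rose by 0.88 in dog1-1 (adjusted p = 6.87e-04) and had 3.08 ± 0.21 in Ler and 3.02 ± 0.14 in NILDOG1. AT4G01575 and AT4G01650, on either side of AT4G01610 with 8 and 2 annotated genes between, differed by 0.025 and -0.25 in dog1-1 against Ler (adjusted p = 0.915 and 0.352), and AT4G01650 passed without dog1-1 replicate 2 (adjusted p = 0.0433).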

How the data were processed

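Each array's deposited log2 values, given for every probe set, came from RMA normalization by the authors across 9 Affymetrix arrays, per the submitters' processing notes (version and chip definition not given in the sources used here). Values of 1.68 to 14.44 fixed the log base. Differences are relative to the arrays' common centre, and the number of arrays limits the precision, with 6 residual degrees of freedom. Of 22810 probe sets 64 controls were set aside. The probe annotation gave a single gene for 13513 of the remaining 22746, more than one for 503 and no entry for 8730; 13436 matched 1 locus of the TAIR10.1 gene table, the source of symbols and gene order. The brightest probe set stood for a gene that had more than one. No coordinates are printed, since the build of the array annotation is not named, and no promoter or protein sequence was used.

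Genotypes were compared with limma 3.58.1 in R 4.3.3 (lmFit and eBayes on all 9 arrays, genotype as the only term), with Benjamini-Hochberg adjustment over all probe sets and a threshold of 0.05; the script was tested on simulated data. The p-values measure the spread between these bulks. Replicate numbers were not used as pairs: after removal of genotype means, arrays with the same number correlated from -0.23 to 0.030 (0 of 9 pairs over 0.1). Alternatives were a replicate block, fits of 2 genotypes, a trended robust prior, a filter on dim probe sets, probe sets listed with several genes, centring on 18 hybridization control probe sets and leaving out each array; leaving out both arrays with a low ribosomal RNA control was added after seeing the data. Both genes and the lists were chosen with earlier results of these data known. Named were both genes, every measured papain-type, inhibitor and processing enzyme gene, from other lists up to 2 called members a direction (or the brightest), the 5 most similar profiles and the nearest measured neighbours. The scpl26, scpl20 and scpl25 genes and other members that complete a count were chosen after their values were seen.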

Additional observations from a re-analysis of the deposited data

How the results depend on the processing

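Centring each array on its hybridization controls moved the median difference of all probe sets in dog1-1 against Ler from -0.040 to 0.31. Under it 5173 probe sets were called there in place of 3095 (93.7% higher, against 61.2%), 7 carboxypeptidase-like genes in place of 3, AT4G01610 was higher by 3.77 in place of 3.42, and SBT3.5 turned to 0.020. In NILDOG1 against Ler that centring gave 81.6% higher calls in place of 58.9%, and in NILDOG1 against dog1-1 17.2% in place of 39.6%. With a replicate block 2792, 114 and 2567 probe sets were called in dog1-1 against Ler, NILDOG1 against Ler and NILDOG1 against dog1-1, in place of 3095, 124 and 2835. With each array left out in turn the probe sets called ranged from 2182 to 3059, 65 to 137 and 2064 to 3060. Calls among all 19 measured papain-type genes ranged from 3 to 4 in the first comparison and from 3 to 5 in the last. With all arrays they were 4 and 5. These counts include CP1 and AT4G01610, which were chosen for their differences, so they are not comparable with those of the 17 others. The lowest counts for NILDOG1 against Ler were 80 without Ler replicate 3, 65 without NILDOG1 replicate 1 and 67 without NILDOG1 replicate 2. Without Ler replicate 1 and dog1-1 replicate 3 together, 1981 and 70 probe sets were called in the first 2 comparisons. With the 2 genotypes alone the calls of AT1G02305, APA1, GAMMA-VPE, SBT1.3, LHCB4.1 and LHCB4.2 in dog1-1 against Ler were lost (adjusted p 0.0633 to 0.102), and the fall of GAMMA-VPE in NILDOG1 against dog1-1 passed (adjusted p = 0.0322), as it did on centring (adjusted p = 0.0338). The fall of APA1 there (-0.36, adjusted p = 0.0306) was lost with the block (adjusted p = 0.0628) and on centring. It was also lost without dog1-1 replicate 2 or 3 or any one of the NILDOG1 arrays (adjusted p 0.0546 to 0.134). The cause of these changes was not tested. Leaving out arrays or a genotype also leaves fewer arrays in the fit, whereas centring and the block keep them all. The differences of CP1 kept their direction on centring. Leaving out arrays could not turn them, since the arrays of its 3 genotypes did not overlap. The difference of AT4G01610 between NILDOG1 and Ler went from -0.16 to 0.011 on centring. The calls of AT3G45310, AT1G62290, scpl35 and scpl29 in dog1-1 against Ler passed under every setting run. Low signals, with every genotype mean under 4, limit what can be said of 13 of the 17 other papain-type genes. Of the 17, 4 were at background in all 3 genotypes and 8 in at least 1.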
